A study of Homo sapiens with 18 samples.

Results

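The genes described here are 9 enzymes that make or salvage DNA precursors, namely RRM1, RRM2, RRM2B, TYMS, TK1, TK2, DTYMK, DUT and DGUOK. They were taken by gene symbol from a table of 25296 genes, and all 9 passed the filter on low counts that left 18226 genes for testing. The study sequenced RNA of U2OS, an established human osteosarcoma line, and asked how the response to cytarabine differs when mutant DNMT3A is overexpressed, relative to overexpressed wild-type DNMT3A or the vector alone. DNMT3A is a DNA methyltransferase, and cytarabine, an analogue of cytidine, is incorporated during replication and stalls DNA synthesis. The 3 lines carried the empty vector MigR1 (EV), DNMT3A wild type (WT) or mutant DNMT3A (MUT), and RNA came from untreated cells or from cells given 10 µM cytarabine for 24 h, giving 6 groups of 3 biological replicates. All groups share the U2OS background and its own DNMT3A gene. The substitution is R882C in the text of the series but R882H in its sample labels. The text of the series describes a vehicle control, whereas the sample labels call these samples untreated. Whether a line is 1 clone or a pool of transduced cells is not given in the sources used here.

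Ribonucleotide reductase turns ribonucleotides into deoxyribonucleotides and is built from the large catalytic subunit RRM1 and a small subunit, which is either RRM2, abundant in S phase, or RRM2B, a p53-inducible form that serves DNA repair and resting cells. Thymidylate needs a route of its own: DUT hydrolyses dUTP to dUMP, TYMS methylates dUMP to dTMP with a folate cofactor, and DTYMK phosphorylates dTMP to dTDP. Salvage adds to this supply, through the cytosolic thymidine kinase TK1, the mitochondrial thymidine kinase TK2 and the mitochondrial deoxyguanosine kinase DGUOK.

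Library totals ran from 15.4 to 21.9 M estimated counts. Levels are given as CPM, counts per M (1000000) counts of the scaled library. DNMT3A, which checks the labels, was lowest in the EV libraries, at 26.2 to 49.6 CPM, and higher in WT (129 to 182 CPM) and MUT (254 to 615 CPM), with no overlap between lines. It was 26.2 to 27.5 CPM in untreated and 45.5 to 49.6 CPM in treated EV. Its values in untreated MUT were 499.7, 615 and 254 CPM, so replicate 3 of that group stood lowest. Of the osteoblast lineage markers, RUNX2 (29.6 to 53.2 CPM), COL1A1 (60.8 to 294 CPM) and ALPL (at least 6.27 CPM) were present in all 18 libraries, while SPP1 reached at most 1.35 CPM and SP7 is not analysed here. The epithelial markers EPCAM (1.85 to 4.01 CPM) and CDH1 (0.370 to 5.18 CPM) were low, as was the haematopoietic marker PTPRC (at most 1.41 CPM). CDH1 rose with cytarabine in all 3 lines, with log2 changes of 1.15 (EV), 1.55 (WT) and 1.67 (MUT), and its part in the results was not tested.

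The 9 genes lie on separate loci of GRCh38 (hg38) and all are protein-coding. RRM1 (chromosome 11, 4094707 to 4138877, plus strand), RRM2 (chromosome 2, 10120698 to 10131420, plus strand) and RRM2B (chromosome 8, 102204502 to 102239119, minus strand) encode the reductase. For the thymidylate route, these are TYMS (chromosome 18, 657604 to 673579, plus strand), DUT (chromosome 15, 48331011 to 48343374, plus strand) and DTYMK (chromosome 2, 241675742 to 241686992, minus strand). The salvage kinases are TK1 (chromosome 17, 78174075 to 78187234, minus strand), TK2 (chromosome 16, 66508003 to 66552545, minus strand) and DGUOK (chromosome 2, 73926826 to 73958962, plus strand). TYMS overlaps ENOSF1, a gene on the opposite strand, over 3256 bases, and RRM2 overlaps the same-strand gene AC007240.1. ENOSF1 held 12.2 to 26.7 CPM and AC007240.1 held 1.95 to 11.6 CPM, and since the handling of strand in counting is not given in the sources used here, reads from overlapping genes may not be told apart. The pseudogene rows RRM2P2, RRM2P3 and DUTP2 stayed at or under 3.77 CPM in all libraries, against at least 413 CPM for RRM2.

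To compare levels between genes, CPM were divided by the exonic length of each gene. On this scale (CPM per kb, mean ± SD, n = 3), TK1 led in untreated EV at 204 ± 5.84, followed by TYMS at 137 ± 1.24, RRM2 at 78.6 ± 1.47 and RRM2B at 45.5 ± 1.06. DGUOK (41.6 ± 0.260), RRM1 (38.7 ± 0.756), DUT (38.2 ± 1.96) and DTYMK (26.3 ± 1.43) formed a middle range in which the libraries of RRM1 and DUT overlapped, and TK2 was lowest at 2.61 ± 0.117. In untreated WT the TYMS level of 204 ± 4.41 CPM per kb overlapped that of TK1, 198 ± 8.52. In untreated MUT, RRM2B came 8th at 31.9 ± 2.00 CPM per kb, its libraries overlapping those of DTYMK at 36.5 ± 4.42. After cytarabine RRM2B ranked 4th in each of the 3 lines, at 81.8 ± 5.53 in EV, 78.9 ± 3.93 in WT and 69.4 ± 2.14 in MUT. Only the treated EV libraries of RRM2B overlapped those of RRM2, the gene ranked above it. With the length of the MANE Select transcript in place of the exonic length, RRM2B ranked 8th in untreated EV. RRM2 in treated MUT ranked 1st with this length, its libraries overlapping those of TYMS, and 3rd with the exonic length. The overlaps of RRM2B with RRM2 in treated EV and of TYMS with TK1 in untreated WT were absent with it. The order of genes, at the top as in the middle range, therefore depends on the length used.

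Promoter windows from RefSeq (GRCh38.p14, 250 bases before to 50 after a start site) were searched for 8 of the 9 genes, in 13 windows, and RRM2B was not included. Stretches with either of 2 short motifs are shown so that the letters shared by members can be seen. CCAAT, the letters bound by the factor NF-Y, occurred on either strand in 6 of the 13 windows, which belong to 5 of the 8 genes, and 34.6% of all 35116 windows held it. TTTNNCGC, the core letters of an E2F site, occurred in 2 of the 13 windows, those of DUT and TYMS shown here, and 6.89% of all windows held it. Both strands were searched, and a match is a description of these letters only. A CCAAT of DGUOK at -231 and one of RRM2 at -249 of a second window are not shown. Stretches of 30 bases around matches follow 5′ to 3′ on the strand of the gene, with the motif or its reverse complement in capitals and the position of its first base counted from the start site.
RRM2 at -123 (chr2:10122604-10122633, plus strand): ggcaaggcgcagCCAATgggaagggtcgga
RRM2 at -93 (chr2:10122634-10122663, plus strand): ggcatggcacagCCAATgggaagggccggg
RRM2 at -66 (chr2:10122661-10122690, plus strand): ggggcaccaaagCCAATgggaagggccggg
RRM1 at -28 (chr11:4094645-4094674, plus strand): gcatgtccatatCCAATggggcccatggga
TK1 at -77 (chr17:78187112-78187141, minus strand): ggccgggcgctgATTGGccccatggcggcg
TK1 at -46 (chr17:78187081-78187110, minus strand): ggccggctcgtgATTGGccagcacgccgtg
DTYMK at -92 (chr2:241686890-241686919, minus strand): ccccggccccggCCAATcccttcgaatttg
DTYMK at -24 (chr2:241686822-241686851, minus strand): tgttgacgccggCCAATgggagctccggaa
DUT at -42 (chr15:48332144-48332173, plus strand): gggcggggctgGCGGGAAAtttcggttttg
DUT at -27 (chr15:48332159-48332188, plus strand): gaaatttcggtTTTGGCGCgctccctgcgg
TYMS at -39 (chr18:657603-657632, plus strand): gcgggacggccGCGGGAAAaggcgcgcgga

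RRM2 held 3 copies of CCAAT in the window shown, each followed by a like stretch of purines, while TK1 and DTYMK held 2 each in the windows shown and RRM1 held 1. The matches of TK1 lay in the reverse direction.

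After 24 h of cytarabine every member that passed the test among RRM1, RRM2, RRM2B and TK2 had risen, and every one among TYMS, DUT, DTYMK, TK1 and DGUOK had fallen. A gene is called when its adjusted p, from the quasi-likelihood test of edgeR with Benjamini-Hochberg adjustment over all 18226 genes, is under 0.05. In EV, 7 of the 9 genes were called, 3 higher and 4 lower, against 49.1% of all tested genes (26.1% higher and 22.9% lower). WT also had 7 called, 4 higher and 3 lower, against 49% of all genes (26.3% higher and 22.7% lower). All 9 were called in MUT, 4 higher and 5 lower, against 56.3% of all genes (30.4% higher and 25.9% lower). The treated and untreated libraries did not overlap for 9 of the 9 genes in EV, 8 in WT and 8 in MUT, the exceptions being TK1 in WT and TYMS in MUT; over all tested genes this share was 58.7%, 65.3% and 56.6%. The median log2 change of the 9 genes was -0.24 in EV, -0.066 in WT and -0.22 in MUT, beside 0.051, 0.026 and 0.054 over all genes. The library scaling factors (TMM) ran from 0.862 to 0.961 in untreated and from 1.04 to 1.11 in treated libraries. Small changes and the lack of overlap therefore depend on this scaling, and no fit used unscaled library totals. In bulk RNA, fewer cells expressing a gene and less RNA per cell cannot be told apart, and the 3 lines were each tested against their own untreated libraries.

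**Figure D1:**
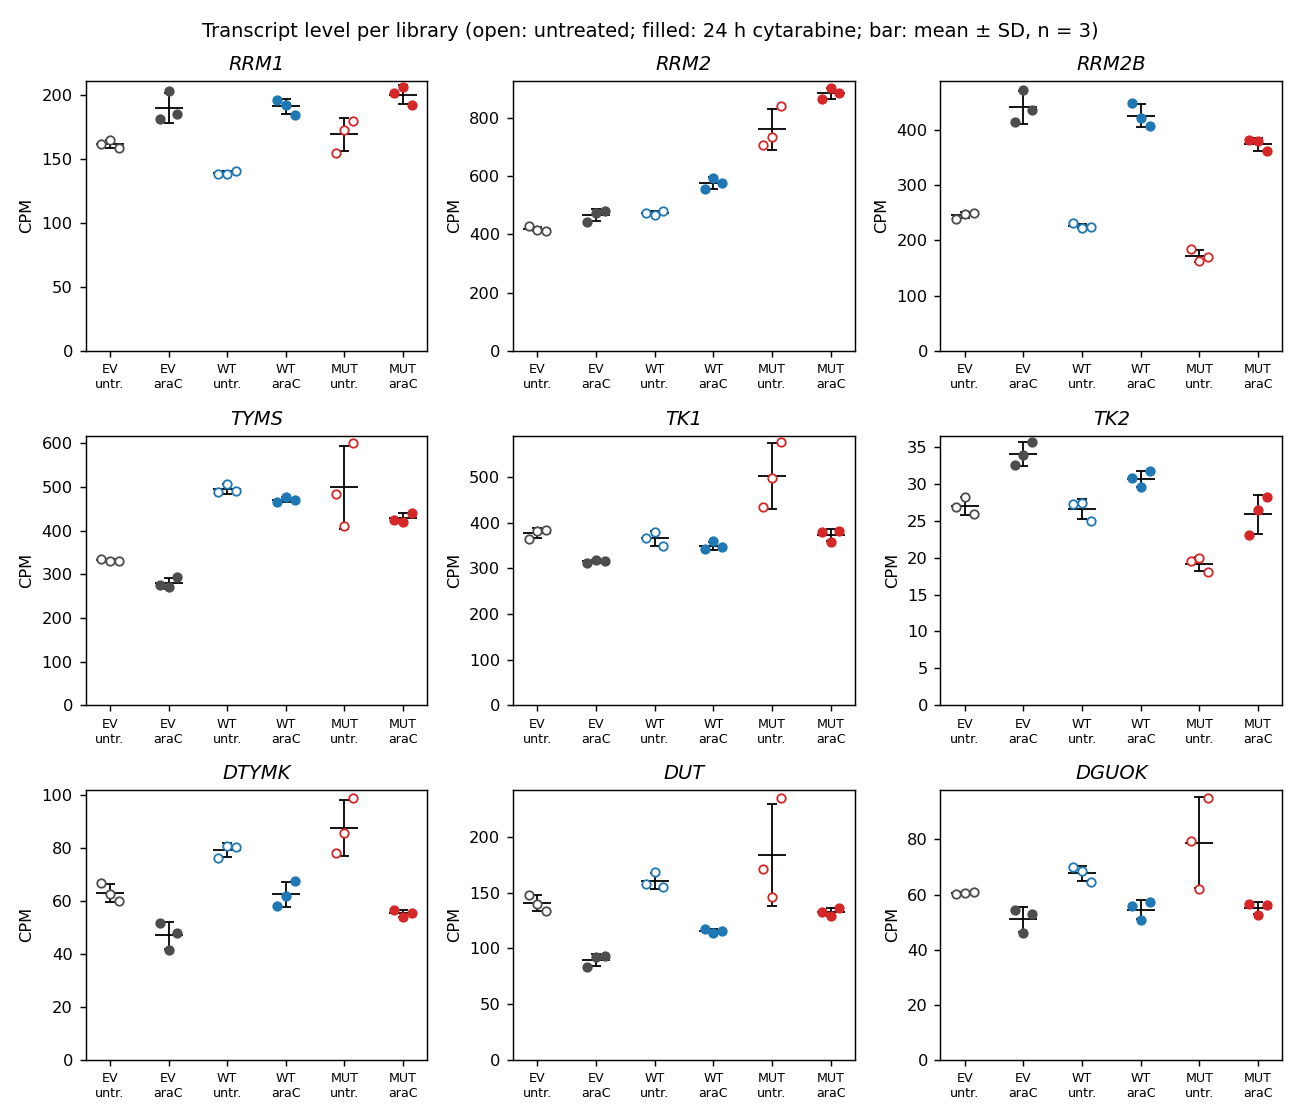
Transcript level in CPM on the y axis for each of the 9 genes, one panel per gene, with the 6 groups on the x axis (untr., untreated; araC, 24 h with 10 µM cytarabine). Points are libraries and the bar is the mean ± SD of 3 replicates; RRM2B is higher in all treated than in all untreated libraries, and the untreated MUT libraries spread most for TYMS, DUT and DGUOK.

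RRM2B, the p53-inducible small subunit, had the largest rise of the 9 genes in each line. In EV, RRM2B stood at 239, 248 and 249.8 CPM untreated and at 414, 473 and 437 CPM after cytarabine. WT libraries held 231, 223 and 225 CPM of RRM2B untreated and 448, 422 and 407 CPM treated. For MUT, the RRM2B values were 184, 163 and 169 CPM untreated and 382, 379 and 361 CPM treated. No treated library of any line overlapped an untreated one, and the untreated MUT libraries were the lowest of all 18. The log2 change (± SE) was 0.84 ± 0.0653 (edgeR adjusted p = 5.75e-09) in EV, 0.91 ± 0.0653 (edgeR adjusted p = 1.94e-09) in WT and 1.12 ± 0.0658 (edgeR adjusted p = 1.26e-10) in MUT. These are 1.80-fold, 1.88-fold and 2.18-fold increases, and all 3 were called under each of the 27 alternative settings.

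RRM2, the S phase small subunit, changed far less. In EV, RRM2 stood at 427, 415 and 413 CPM untreated and at 444, 474 and 480.2 CPM after cytarabine. WT libraries held 471, 465 and 479 CPM of RRM2 untreated and 556, 594 and 577 CPM treated. For MUT, the RRM2 values were 707, 734 and 839 CPM untreated and 865, 901 and 885 CPM treated. Every treated library stood above every untreated library of its own line, while the lines were ordered EV, WT, MUT at both treatments. RRM2 rose by 0.29 ± 0.0639 (edgeR adjusted p = 9.54e-04) on the log2 scale in WT and by 0.22 ± 0.0637 (edgeR adjusted p = 0.00712) in MUT, and the change of 0.16 ± 0.0640 (edgeR adjusted p = 0.0513) in EV missed the threshold. The MUT call was lost without replicate 2 of untreated MUT (adjusted p = 0.0686), with the scaling factors of the authors (adjusted p = 0.117) and when only the 2 groups were fitted (adjusted p = 0.106). The EV change passed in 9 of the 27 alternatives, among them those without replicate 1 of treated EV (adjusted p = 0.0315) or without replicate 1 (adjusted p = 0.0331), 2 (adjusted p = 0.0401) or 3 (adjusted p = 0.00662) of untreated MUT.

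RRM1, the large subunit shared by both forms of the enzyme, rose in all 3 lines. In EV, RRM1 stood at 162, 165 and 158 CPM untreated and at 181, 204 and 185 CPM after cytarabine. WT libraries held 139, 138 and 141 CPM of RRM1 untreated and 196, 192 and 185 CPM treated. For MUT, the RRM1 values were 155, 173 and 179.9 CPM untreated and 202, 207 and 193 CPM treated. Treated libraries of the 3 lines lay in 1 common range, and the untreated WT libraries were the lowest. The log2 change was 0.23 ± 0.0651 (edgeR adjusted p = 0.00588) in EV, 0.46 ± 0.0652 (edgeR adjusted p = 1.03e-05) in WT and 0.24 ± 0.0649 (edgeR adjusted p = 0.00358) in MUT. With the scaling factors of the authors the EV and MUT calls were lost (adjusted p = 0.0621 and adjusted p = 0.0581), and fitting only the 2 MUT groups gave adjusted p = 0.0645.

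**Figure D2:**
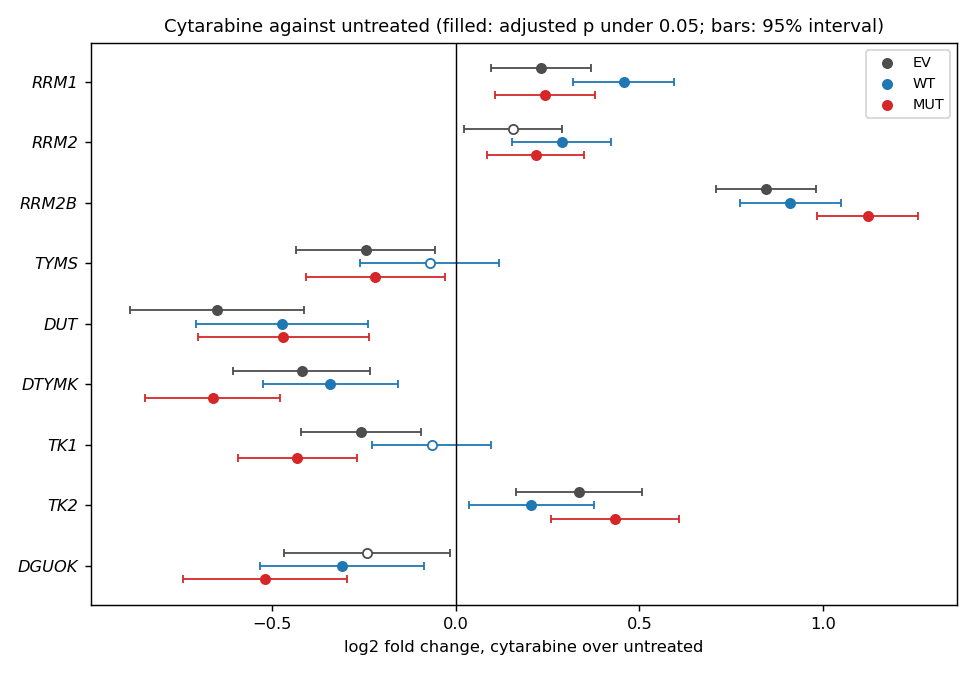
Log2 fold change of cytarabine over untreated cells on the x axis for the 9 genes on the y axis, in EV, WT and MUT. Bars are 95% confidence intervals of the edgeR fit and filled points are called; RRM2B lies farthest to the right in all 3 lines, and DUT and DTYMK lie below 0 in all 3.

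The balance between the small subunits shifted with treatment and differed between lines. Per length, the RRM2B to RRM2 ratio was 0.552, 0.589 and 0.598 in untreated EV and 0.921, 0.984 and 0.897 in treated EV. WT gave ratios of 0.484, 0.474 and 0.463 untreated and 0.797, 0.700 and 0.695 treated. MUT gave 0.257, 0.219 and 0.199 untreated and 0.436, 0.415 and 0.403 treated. Each treated set lay above the untreated set of its line, and all MUT libraries, treated ones included, lay below all untreated WT and EV libraries. The mean ratio was 1.61-fold the untreated value in EV, 1.54-fold in WT and 1.86-fold in MUT. With MANE Select lengths the ratio was 0.401 ± 0.0166 in untreated EV and 0.155 ± 0.0203 in untreated MUT (SD, n = 3), so its value depends on the length. The length of a gene is the same for all libraries, so the choice of length cannot change the order of the groups. The RRM2 to RRM1 ratio differed mainly by line: 2.03 ± 0.0480 untreated and 1.93 ± 0.105 treated in EV. It was 2.66 ± 0.0184 and 2.37 ± 0.126 in WT, and 3.53 ± 0.172 and 3.46 ± 0.128 in MUT.

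**Figure D3:**
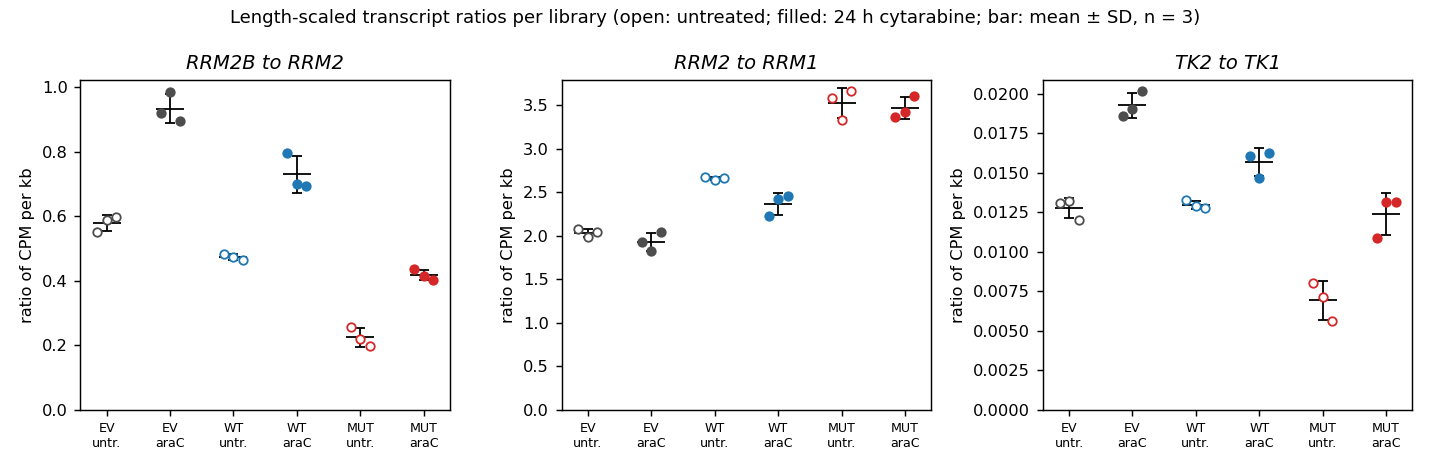
Ratio of CPM per kb of exonic length on the y axis for 3 gene pairs, with the 6 groups on the x axis. Points are libraries and the bar is the mean ± SD of 3 replicates; the RRM2B to RRM2 ratio is higher after cytarabine in each line and lowest in MUT, where it goes from 0.225 to 0.418.

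DUT, which removes dUTP and makes the substrate of TYMS, fell in all 3 lines. In EV, DUT stood at 148, 140.0 and 133 CPM untreated and at 83.2, 91.9 and 93.1 CPM after cytarabine. WT libraries held 158, 169 and 155 CPM of DUT untreated and 118, 114 and 115 CPM treated. For MUT, the DUT values were 172, 146 and 235 CPM untreated and 133, 129 and 137 CPM treated. No treated library reached an untreated one of its line, and replicate 3 of untreated MUT stood far above replicates 1 and 2. DUT fell on the log2 scale, with changes of -0.65 ± 0.113 (edgeR adjusted p = 8.84e-05) in EV, -0.47 ± 0.112 (edgeR adjusted p = 0.00161) in WT and -0.47 ± 0.111 (edgeR adjusted p = 0.00138) in MUT. The calls held in all 27 alternatives in each line.

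DTYMK, the thymidylate kinase, followed the same direction. In EV, DTYMK stood at 66.7, 62.6 and 59.8 CPM untreated and at 51.7, 41.5 and 47.8 CPM after cytarabine. WT libraries held 76.4, 80.9 and 80.5 CPM of DTYMK untreated and 58.2, 61.9 and 67.5 CPM treated. For MUT, the DTYMK values were 78.2, 85.5 and 99.1 CPM untreated and 56.6, 53.8 and 55.6 CPM treated. Treated and untreated libraries did not overlap within any line. Its log2 change was -0.42 ± 0.0896 (edgeR adjusted p = 6.60e-04) in EV, -0.34 ± 0.0878 (edgeR adjusted p = 0.00307) in WT and -0.66 ± 0.0880 (edgeR adjusted p = 3.17e-06) in MUT, and these calls also held in all 27 alternatives.

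TYMS, the thymidylate synthase and target of fluoropyrimidine drugs, had the smallest changes in the thymidylate route. In EV, TYMS stood at 335, 329.5 and 331 CPM untreated and at 275, 270.4 and 294 CPM after cytarabine. WT libraries held 488, 507 and 489.8 CPM of TYMS untreated and 466, 478 and 469 CPM treated. For MUT, the TYMS values were 484, 411 and 601 CPM untreated and 424, 419.7 and 441 CPM treated. EV libraries were the lowest at either treatment, and in MUT replicate 2 of the untreated group lay below the treated range while replicate 3 lay far above it. The fall in EV was -0.25 ± 0.0905 (edgeR adjusted p = 0.0306) and in MUT -0.22 ± 0.0901 (edgeR adjusted p = 0.0447), and the WT change of -0.072 ± 0.0900 (edgeR adjusted p = 0.531) was not called. The EV call was lost without replicate 1 (adjusted p = 0.0743) or 2 (adjusted p = 0.0894) of treated EV and without replicate 1 (adjusted p = 0.0772), 2 (adjusted p = 0.0633) or 3 (adjusted p = 0.0642) of untreated EV, and with upper-quartile scaling or a stricter filter. The MUT call was lost on leaving out any 1 of 14 of the 18 libraries (edgeR adjusted p = 0.0523 to 0.189, the latter without replicate 3 of untreated MUT) and with 2 other settings.

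Among the salvage kinases, TK1, which works in S phase, fell in EV and MUT. In EV, TK1 stood at 365, 383 and 384 CPM untreated and at 312, 318 and 316 CPM after cytarabine. WT libraries held 368, 381 and 349 CPM of TK1 untreated and 342, 359 and 347 CPM treated. For MUT, the TK1 values were 434, 498 and 578 CPM untreated and 379, 358 and 382 CPM treated. The WT libraries overlapped between treatments, and those of EV and MUT did not. The log2 change was -0.26 ± 0.0778 (edgeR adjusted p = 0.00969) in EV, -0.066 ± 0.0776 (edgeR adjusted p = 0.504) in WT and -0.43 ± 0.0776 (edgeR adjusted p = 9.93e-05) in MUT. The EV call was lost with upper-quartile scaling (edgeR adjusted p = 0.0558).

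TK2, the mitochondrial counterpart, rose in all 3 lines from a low level. In EV, TK2 stood at 26.8, 28.3 and 25.9 CPM untreated and at 32.5, 34.0 and 35.7 CPM after cytarabine. WT libraries held 27.3, 27.5 and 25.0 CPM of TK2 untreated and 30.8, 29.6 and 31.7 CPM treated. For MUT, the TK2 values were 19.5, 19.9 and 18.1 CPM untreated and 23.0, 26.4 and 28.2 CPM treated. Each treated library stood above the untreated libraries of its line. The rise was 0.34 ± 0.0815 (edgeR adjusted p = 0.00204) in EV, 0.21 ± 0.0812 (edgeR adjusted p = 0.0425) in WT and 0.43 ± 0.0834 (edgeR adjusted p = 2.03e-04) in MUT. In WT the call was lost on leaving out any 1 of 10 libraries (edgeR adjusted p = 0.0510 to 0.167), with the scaling factors of the authors, and with no filter. The TK2 to TK1 ratio per length went from 0.0128 ± 6.53e-04 to 0.0193 ± 8.12e-04 in EV, from 0.0130 ± 2.50e-04 to 0.0157 ± 8.67e-04 in WT and from 0.00692 ± 0.00123 to 0.0124 ± 0.00134 in MUT (mean ± SD, n = 3).

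DGUOK, which phosphorylates purine deoxyribonucleosides in mitochondria, fell in WT and MUT. In EV, DGUOK stood at 60.1, 60.5 and 60.9 CPM untreated and at 54.3, 45.9 and 52.9 CPM after cytarabine. WT libraries held 69.8, 68.4 and 64.7 CPM of DGUOK untreated and 55.9, 50.6 and 57.2 CPM treated. For MUT, the DGUOK values were 79.6, 62.0 and 95.1 CPM untreated and 56.4, 52.6 and 56.1 CPM treated. Treated libraries lay below untreated ones in each line, and the 3 untreated MUT libraries were spread over a wider range than those of EV or WT. The log2 change was -0.24 ± 0.108 (edgeR adjusted p = 0.0696) in EV, -0.31 ± 0.107 (edgeR adjusted p = 0.0214) in WT and -0.52 ± 0.106 (edgeR adjusted p = 3.64e-04) in MUT. The WT call was lost without replicate 2 of treated WT (adjusted p = 0.0933), without replicate 1 (adjusted p = 0.0687) or 2 (adjusted p = 0.0601) of untreated WT and with upper-quartile scaling (adjusted p = 0.0537), and the EV change passed without replicate 2 (adjusted p = 0.0160) or 3 (adjusted p = 0.0177) of untreated MUT, with the factors of the authors (adjusted p = 0.0296), when only the 2 groups were fitted (adjusted p = 0.0219) and without replicates 2 and 3 of untreated MUT together (adjusted p = 0.00407).

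Whether the lines responded differently was tested as the difference between their cytarabine effects. None of the 9 genes was called in any of the 3 differences, WT against EV (0.285% of all genes called), MUT against EV (0.214%) and MUT against WT (1%). Before adjustment, 1, 1 and 4 of the 9 genes had p under 0.05, against 9.96%, 15.8% and 15.4% of all genes. DESeq2 called 0, 0 and 1 of them, and 131, 486 and 790 genes of the whole table. RRM2B differed between MUT and EV by 0.28 ± 0.0919, with a 95% interval of 0.084 to 0.47 (edgeR adjusted p = 0.167). TK1 differed between MUT and WT by -0.37 ± 0.110, with an interval of -0.60 to -0.14 (edgeR adjusted p = 0.111), which passed with DESeq2 (adjusted p = 0.0119) and without replicate 1 of untreated MUT (adjusted p = 0.00949). The DGUOK difference between MUT and EV, -0.28 ± 0.151 (edgeR adjusted p = 0.389), passed without replicate 2 of untreated MUT (adjusted p = 0.0490). For RRM1 the difference between WT and EV was 0.22 ± 0.0920, with an interval of 0.031 to 0.42 (edgeR adjusted p = 0.429).

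Between untreated lines, the largest differences were those of RRM2 between MUT and either other line, followed by those of TYMS between EV and each DNMT3A line. MUT against EV gave 8 called genes, 6 higher and 2 lower, where 19.9% of all genes were called (9.88% higher and 10% lower). MUT against WT gave 5, 3 higher and 2 lower, where 21.2% were called (11.7% higher and 9.54% lower), and WT against EV gave 3, 2 higher and 1 lower, where 11.7% were called (4.3% higher and 7.36% lower). The comparisons share libraries, so their counts are not independent.

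RRM2 was higher in MUT than in EV by 0.86 ± 0.0644 (edgeR adjusted p = 5.44e-08) on the log2 scale, 1.82-fold, and higher than in WT by 0.69 ± 0.0641 (edgeR adjusted p = 4.55e-07). WT against EV, at 0.17 ± 0.0640 (edgeR adjusted p = 0.0925), was not called, though it passed when only those groups were fitted (adjusted p = 1.94e-04) and without replicate 3 of untreated MUT (adjusted p = 0.0168). RRM2B was lower in MUT, with log2 differences of -0.51 ± 0.0655 (edgeR adjusted p = 3.00e-05) against EV and -0.40 ± 0.0654 (edgeR adjusted p = 2.85e-04) against WT, with -0.12 ± 0.0651 (edgeR adjusted p = 0.288) between WT and EV. For both genes the untreated MUT libraries stood clear of all untreated EV and WT libraries. RRM1 was lower in WT than in EV, at -0.21 ± 0.0653 (edgeR adjusted p = 0.0382), a call lost on leaving out any 1 of 11 libraries (edgeR adjusted p = 0.0510 to 0.132). RRM1 was higher in MUT than in WT by 0.28 ± 0.0653 (edgeR adjusted p = 0.00441), lost when only those groups were fitted (adjusted p = 0.0961) and without replicates 2 and 3 of untreated MUT together (adjusted p = 0.0999).

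TYMS was higher than in EV in both DNMT3A lines, by 0.58 ± 0.0905 (edgeR adjusted p = 2.29e-04) in WT and 0.59 ± 0.0906 (edgeR adjusted p = 1.86e-04) in MUT, and MUT and WT differed by 0.011 ± 0.0900 (edgeR adjusted p = 0.946). DTYMK was higher by 0.33 ± 0.0883 (edgeR adjusted p = 0.0182) in WT and 0.47 ± 0.0883 (edgeR adjusted p = 8.98e-04) in MUT. The WT difference of DTYMK was lost without replicate 2 (adjusted p = 0.0653) or 3 (adjusted p = 0.0900) of untreated EV or replicate 2 (adjusted p = 0.0866) or 3 (adjusted p = 0.0651) of untreated WT. DUT was higher in MUT than in EV by 0.39 ± 0.112 (edgeR adjusted p = 0.0185), lost without replicate 2 (adjusted p = 0.0587) or 3 (adjusted p = 0.0817) of untreated EV. DUT was not called in WT against EV (0.19 ± 0.112) or MUT against WT (0.20 ± 0.111). The first passed without replicate 3 of untreated MUT (edgeR adjusted p = 0.0421) and when only those groups were fitted (edgeR adjusted p = 0.00102). The second passed without replicate 2 of untreated MUT (edgeR adjusted p = 0.00627). The MUT and EV libraries of DUT overlapped, since replicate 2 of untreated MUT lay within the EV range, whereas those of TYMS did not.

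TK1 was higher in MUT, by 0.42 ± 0.0777 (edgeR adjusted p = 9.22e-04) against EV and 0.46 ± 0.0777 (edgeR adjusted p = 3.47e-04) against WT, while TK2 was lower in MUT, with differences of -0.49 ± 0.0843 (edgeR adjusted p = 4.50e-04) and -0.47 ± 0.0838 (edgeR adjusted p = 5.43e-04). Neither kinase was called between WT and EV, at -0.044 ± 0.0777 and -0.021 ± 0.0823 (edgeR adjusted p = 0.789 and 0.914). DGUOK was higher in MUT than in EV by 0.38 ± 0.107 (edgeR adjusted p = 0.0160), lost without replicate 1 (adjusted p = 0.0505), 2 (just over the threshold) or 3 (adjusted p = 0.0502) of untreated EV or replicate 3 of untreated MUT (adjusted p = 0.0529). Between MUT and WT, DGUOK differed by 0.22 ± 0.106 (edgeR adjusted p = 0.148), which passed without replicate 2 of untreated MUT (adjusted p = 0.00195). When only the 2 groups were fitted, MUT against EV was lost for TK1 (adjusted p = 0.0644), DUT (adjusted p = 0.173) and DGUOK (adjusted p = 0.141). DGUOK in WT against EV, at 0.16 ± 0.107 (edgeR adjusted p = 0.389), was not called. When only those groups were fitted it passed (edgeR adjusted p = 0.00899), as did RRM2B in WT against EV (edgeR adjusted p = 0.0201). The untreated MUT libraries differ most among themselves: for RRM1, RRM2, TYMS, TK1, DTYMK, DUT and DGUOK replicate 3, which held the least DNMT3A, was the highest. The part of DNMT3A level or of this library in these differences was not tested.

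Under cytarabine the differences in RRM2 and TYMS between lines were present again. WT against EV gave 4 called genes, all higher, where 16.5% of all genes were called (7.41% higher and 9.12% lower). MUT against EV gave 6, 4 higher and 2 lower, where 14% were called (6.85% higher and 7.13% lower), and MUT against WT gave 3, 1 higher and 2 lower, where 19.8% were called (10.4% higher and 9.48% lower). RRM2 was higher by 0.92 ± 0.0643 (edgeR adjusted p = 2.10e-08) in MUT against EV, 0.62 ± 0.0640 (edgeR adjusted p = 1.55e-06) in MUT against WT and 0.31 ± 0.0639 (edgeR adjusted p = 0.00262) in WT against EV. TYMS was higher than in EV by 0.75 ± 0.0907 (edgeR adjusted p = 1.18e-05) in WT and 0.61 ± 0.0906 (edgeR adjusted p = 1.64e-04) in MUT. DUT was higher by 0.37 ± 0.113 (edgeR adjusted p = 0.0290) in WT, lost on leaving out any 1 of the 6 libraries compared (edgeR adjusted p = 0.0532 to 0.108), and by 0.57 ± 0.113 (edgeR adjusted p = 0.00208) in MUT. DTYMK was higher in WT than in EV by 0.41 ± 0.0891 (edgeR adjusted p = 0.00353); in MUT against EV it differed by 0.23 ± 0.0891 (edgeR adjusted p = 0.0925), which passed without replicate 1 of treated EV (adjusted p = 0.0482) or replicate 3 of untreated MUT (adjusted p = 0.0479). DUT between MUT and WT was not called, at 0.20 ± 0.112 (edgeR adjusted p = 0.227). It passed without replicate 3 of untreated MUT (edgeR adjusted p = 0.0201) and when only those groups were fitted (edgeR adjusted p = 0.00244).

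RRM2B was lower in treated MUT, with log2 differences of -0.24 ± 0.0646 (edgeR adjusted p = 0.0189) from treated EV and -0.19 ± 0.0646 (edgeR adjusted p = 0.0488) from treated WT. The first of these was lost without replicate 2 (adjusted p = 0.0940) or 3 (adjusted p = 0.0522) of treated EV or replicate 2 (adjusted p = 0.0516) or 3 (adjusted p = 0.0914) of treated MUT, and the second on leaving out any 1 of 13 libraries (edgeR adjusted p = 0.0544 to 0.198). TK2 was lower in treated MUT, with differences of -0.40 ± 0.0806 (edgeR adjusted p = 0.00272) against EV and -0.24 ± 0.0808 (edgeR adjusted p = 0.0386) against WT, the latter lost on leaving out any 1 of 7 libraries (edgeR adjusted p = 0.0503 to 0.212). TK1 was higher in treated MUT than in treated EV by 0.24 ± 0.0777 (edgeR adjusted p = 0.0439), a call that held in 9 of 27 alternatives and was lost on leaving out any 1 of 15 libraries (edgeR adjusted p = 0.0554 to 0.144). The treated libraries of MUT and WT overlapped for RRM1, TK1 and DGUOK, none of which was called between them. Those of TYMS, DTYMK and DUT did not overlap, and these genes were not called either. TYMS differed by -0.14 ± 0.0900 (edgeR adjusted p = 0.316) and DTYMK by -0.18 ± 0.0883 (edgeR adjusted p = 0.174). Both passed when only those groups were fitted (edgeR adjusted p = 0.0100 and 0.0324).

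The tested genes around the members were set beside them between untreated lines, a comparison chosen after the values were seen, within 250 kb, 1 Mb and 5 Mb. Around TYMS, in that order of windows, the median log2 difference of WT against EV was 0.68, 0.68 and 0.35 over 7, 13 and 35 genes, and that of MUT against EV was 0.22, 0.39 and 0.015. Within 1 Mb, 5 of these genes were called higher and 0 lower in WT, and 4 were called higher and 0 lower in MUT. Over all genes, 4.3% were called higher and 7.36% lower in WT, and 9.88% and 10% in MUT. Called or not, 12 of the 13 genes within 1 Mb differed by more than 0 in WT and 9 in MUT. USP14, a ubiquitin protease 443 kb from TYMS, differed by 0.70 in WT and 0.67 in MUT, THOC1, a subunit of an mRNA export complex, by 0.72 and 0.65, and ENOSF1 by 0.75 and 0.66. TYMS itself differed by 0.58 and 0.59.

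Around RRM2, the medians of MUT against EV were 0.43, 0.32 and 0.20 over 10, 25 and 42 genes, beside 0.86 for RRM2 itself, and within 1 Mb 7 genes were higher and 1 lower. Around TK2, they were -0.086, -0.34 and -0.40 over 10, 40 and 121 genes, beside -0.49 for TK2, with 1, 14 and 51 genes lower and 0, 1 and 1 higher. WT against EV gave medians of -0.053, -0.19 and -0.25 for these genes, with 1, 8 and 35 lower, where TK2 differed by -0.021. Around RRM2B, the medians of MUT against EV were -0.20, -0.072 and -0.039 over 2, 11 and 44 genes, beside -0.51 for RRM2B. Of these genes edgeR called 0, 0 and 5, where 19.9% of all genes were called. For the other members, the medians of MUT against EV were 0.26, 0.23 and 0.20 around DTYMK, beside 0.47 for DTYMK. They were -0.41, 0.18 and 0.12 around DUT (0.39) and 0.10, -0.15 and -0.14 around RRM1 (0.067). Around TK1 (0.42) they were 0.21, 0.052 and 0.055, and around DGUOK (0.38) 0.11, 0.092 and 0.092. The median over all genes was -0.0030 in MUT against EV and 0.0029 in WT against EV. Of all genes, edgeR called 9.88% higher and 10% lower in MUT against EV, and 4.3% and 7.36% in WT against EV. The part of gene position in the line differences was not tested.

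**Figure D4:**
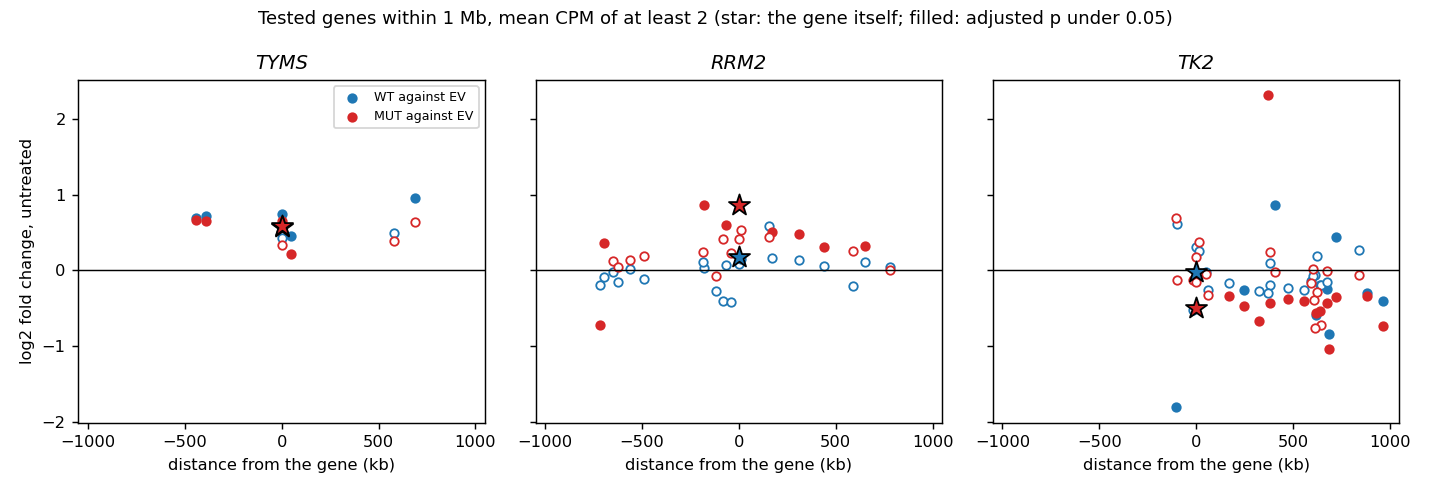
Log2 difference between untreated lines on the y axis against the distance in kb from TYMS, RRM2 or TK2 on the x axis, for tested genes within 1 Mb with a mean of at least 2 CPM (7, 21 and 32 genes). Stars mark the gene itself and filled points are called. Near TYMS all points shown lie above 0 in both comparisons, and near TK2 most red points (MUT against EV) lie below 0. Of all 13 tested genes within 1 Mb of TYMS, 12 were above 0 in WT against EV and 9 in MUT against EV.

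Across the 18 libraries members were compared by the correlation of their log2 CPM, given as a description since the libraries share groups, treatments and scaling. DUT and DGUOK gave r = 0.88 and rho = 0.91, DTYMK and DUT gave r = 0.86 and rho = 0.83, and TK1 and DUT gave r = 0.82 and rho = 0.76. In the opposite sense, TK1 and TK2 gave r = -0.90 and rho = -0.78, and RRM2B and DUT gave r = -0.84 and rho = -0.92. At lower values, RRM2 and TYMS gave r = 0.51 and rho = 0.33, RRM2 and TK1 gave r = 0.50 and rho = 0.18, RRM2 and TK2 gave r = -0.53 and rho = -0.33, RRM2 and RRM1 gave r = 0.50 and rho = 0.55, and RRM2 and RRM2B gave r = -0.038 and rho = -0.042. Lastly, RRM1 and RRM2B gave r = 0.70 and rho = 0.72.

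By the same measure, the 3 genes most like each member, were sought over 18 libraries among genes whose log2 CPM averaged 1 or more. For RRM2B these were CLSTN3 (r = 0.984, rho = 0.924), PPM1D (r = 0.983, rho = 0.971), OSBPL2 (r = 0.982, rho = 0.950). PPM1D, a phosphatase, is a known p53 target. RRM2 was most like KRT75 (r = 0.967, rho = 0.944), CCNE1 (r = 0.933, rho = 0.882), LIG1 (r = 0.928, rho = 0.827). CCNE1 is cyclin E1 and LIG1 is the replicative DNA ligase. RRM1 was most like RFLNB (r = 0.963, rho = 0.953), CASP9 (r = 0.961, rho = 0.940), ELOVL4 (r = 0.957, rho = 0.953). Within 1 treatment, r of RRM1 with these was 0.96, 0.92 and 0.91 over untreated libraries and 0.73, 0.63 and 0.76 over treated ones. For RRM2 and its 3 genes it was 0.98, 0.96 and 0.90 untreated and 0.97, 0.95 and 0.95 treated. TYMS was most like its neighbours USP14 and THOC1, then GGCT: USP14 (r = 0.981, rho = 0.961), THOC1 (r = 0.926, rho = 0.880), GGCT (r = 0.911, rho = 0.924). DUT was most like UBE2E3 (r = 0.982, rho = 0.973), RAB2A (r = 0.962, rho = 0.950), FAM136A (r = 0.958, rho = 0.940), and DTYMK most like MALSU1 (r = 0.956, rho = 0.940), BRF2 (r = 0.954, rho = 0.942), ATG3 (r = 0.951, rho = 0.955). Of the salvage kinases, TK1 was most like CENPS (r = 0.966, rho = 0.963), NOSIP (r = 0.956, rho = 0.872), AP3S1 (r = 0.948, rho = 0.798), TK2 most like KCND3 (r = 0.938, rho = 0.870), TBC1D22B (r = 0.937, rho = 0.870), NOV (r = 0.934, rho = 0.889), and DGUOK most like NDUFB3 (r = 0.976, rho = 0.913), SF3B6 (r = 0.972, rho = 0.924), TBCA (r = 0.969, rho = 0.940).

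The other genes of nucleotide supply were counted from lists, which are not independent of earlier results on these data; over all genes, edgeR called 26.1% higher and 22.9% lower in EV, 26.3% and 22.7% in WT, and 30.4% and 25.9% in MUT. Of 4 genes of the folate cycle and dUMP supply, EV showed 1 rise and 3 falls, WT 1 and 1, and MUT 1 and 3, with median log2 changes of -0.34, -0.095 and -0.30. SHMT1, the cytosolic serine hydroxymethyltransferase and the gene that rose, did so by 0.46 ± 0.0753 (edgeR adjusted p = 4.46e-05) in EV, 0.50 ± 0.0752 (edgeR adjusted p = 1.72e-05) in WT and 0.46 ± 0.0743 (edgeR adjusted p = 3.31e-05) in MUT. DCTD, which makes dUMP from dCMP, fell most in each line: -0.56 ± 0.0633 (edgeR adjusted p = 6.52e-07) in EV, -0.44 ± 0.0627 (edgeR adjusted p = 1.05e-05) in WT and -0.65 ± 0.0629 (edgeR adjusted p = 6.28e-08) in MUT.

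Of 8 genes of de novo pyrimidine synthesis, EV showed 7 falls and 1 rise, WT 6 and 1, and MUT 7 and 1, with medians of -0.45, -0.33 and -0.41. The gene that rose was CTPS2, a CTP synthase, by 1.09 ± 0.157 (edgeR adjusted p = 1.18e-05) in EV, 1.37 ± 0.184 (edgeR adjusted p = 5.10e-06) in WT and 0.91 ± 0.157 (edgeR adjusted p = 6.21e-05) in MUT, from low levels of 6.26, 1.96 and 6.15 CPM. DHODH, the mitochondrial dihydroorotate dehydrogenase, fell most, with -0.88 ± 0.125 (edgeR adjusted p = 9.80e-06) in EV, -0.63 ± 0.126 (edgeR adjusted p = 3.44e-04) in WT and -0.84 ± 0.131 (edgeR adjusted p = 2.20e-05) in MUT. Of 9 genes of salvage and dNTP breakdown, EV showed 2 rises and 3 falls, WT 2 and 3, and MUT 2 and 4, with medians of -0.026, -0.15 and -0.34, and the share called in EV and WT was near that of all genes. SAMHD1, the dNTP triphosphohydrolase that also hydrolyses the triphosphate of cytarabine, rose by 0.86 ± 0.0704 (edgeR adjusted p = 1.11e-08) in EV, 0.87 ± 0.0708 (edgeR adjusted p = 1.08e-08) in WT and 0.82 ± 0.0699 (edgeR adjusted p = 1.22e-08) in MUT. DCTPP1, a pyrophosphatase of dCTP, fell most in EV (-0.78 ± 0.0940, edgeR adjusted p = 1.30e-06) and MUT (-0.94 ± 0.0933, edgeR adjusted p = 7.75e-08), and the 5′-nucleotidase NT5C fell most in WT (-0.98 ± 0.117, edgeR adjusted p = 1.27e-06).

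**Figure D5:**
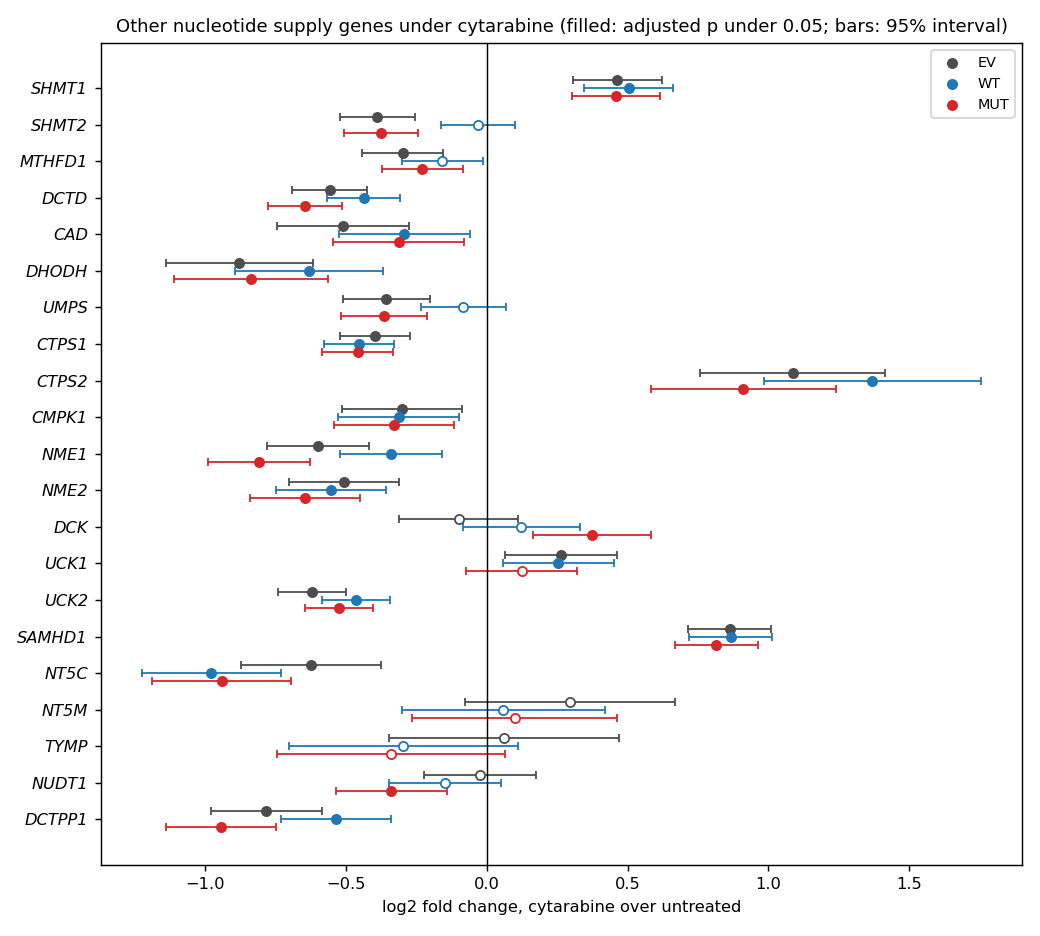
Log2 fold change of cytarabine over untreated cells on the x axis for 21 other nucleotide supply genes on the y axis, in EV, WT and MUT. Bars are 95% confidence intervals of the edgeR fit and filled points are called; CTPS2 and SAMHD1 lie farthest to the right, and most de novo pyrimidine genes lie below 0.

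Of 12 S phase replication genes, EV showed 8 falls and 0 rises, WT 6 and 2, and MUT 7 and 2, with medians of -0.42, -0.24 and -0.27. The largest falls were those of the helicase subunits MCM5 in EV (-1.09 ± 0.0548, edgeR adjusted p = 4.30e-11), MCM7 in WT (-0.72 ± 0.0516, edgeR adjusted p = 2.03e-09) and MCM5 in MUT (-0.94 ± 0.0545, edgeR adjusted p = 1.06e-10), and the largest rises those of CCNE1 in WT (0.34 ± 0.0645, edgeR adjusted p = 2.22e-04) and the licensing factor CDT1 in MUT (0.28 ± 0.0968, edgeR adjusted p = 0.0203). Of 11 p53 targets, 9 rose in EV, 10 in WT and 10 in MUT and 0 fell, with medians of 0.43, 0.78 and 0.58. CDKN1A, the cell cycle inhibitor p21, rose most, by 1.14 ± 0.0607 (edgeR adjusted p = 9.60e-11) in EV, 1.34 ± 0.0609 (edgeR adjusted p = 6.07e-12) in WT and 1.39 ± 0.0612 (edgeR adjusted p = 6.51e-12) in MUT. In untreated MUT against EV, 7 of these 11 p53 targets were lower and 0 higher, where 10% of all genes were lower and 9.88% higher. The part of the p53 targets and of the S phase genes in the changes of the 9 members was not tested.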

How the data were processed

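Total RNA of U2OS cells, plated in biological triplicates per the labels, was sequenced in 18 libraries. The authors deposited estimated counts per gene, made from reads processed with CASAVA and aligned to hg38 with STAR 2.6.1d per the submitters' processing notes; the counting tool and its strand handling are not given in the sources used here. Their deposited normalised signal, which by its values is 1 plus each count times a factor per library, served only for an alternative scaling. Of the estimated counts 70.4% were whole, and all were rounded. Genes passing filterByExpr were scaled by TMM and fitted over all 18 libraries in 1 edgeR 4.0.16 quasi-likelihood model (R 4.3.3), with Benjamini-Hochberg adjustment and a threshold of 0.05. The common biological coefficient of variation was 0.104. SE are the log2 change over the square root of F, and intervals are 95%. The fit was tried on simulated counts in which a small set of genes was changed in treated EV only. In the data 49.1% of genes were called in EV, so the simulation does not check the fit in that setting. Likeness is Pearson's r of log2 CPM (prior count 2) over 18 libraries, and the 3 highest genes are named per member; from each list, the gene with the largest rise and fall among those called is named. The members and lists were chosen with earlier results of these data known, and 1 gene and 1 marker of the lists are not reported here. The 27 alternatives included other scalings and filters, DESeq2 1.42.0 and leaving out each library. P-values measure the spread between these cultures, estimated over all 18 libraries rather than over the compared groups alone. Those of WT against EV therefore also carry the spread of the untreated MUT libraries, which differ most among themselves.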

Additional observations from a re-analysis of the deposited data

How the results depend on the processing

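Of the 52 calls made for the 9 genes over the comparisons, 33 held in all 27 alternatives, which changed 1 setting or left out 1 library each, except that 1 alternative, chosen after seeing the data, left out replicates 2 and 3 of untreated MUT. The number of genes called moved by over 1.5 times in these cases, and the cause was not tested. For WT against EV untreated (3 called), 7 were called with only the groups compared in the fit, 5 without replicates 2 and 3 of untreated MUT, and 1 to 5 on leaving out 1 library. For MUT against EV untreated (8 called), 5 were called with only the groups compared. For MUT against WT under cytarabine (3 called), 6 were called with only the groups compared, 5 without replicates 2 and 3 of untreated MUT, and 1 to 4 on leaving out 1 library. For the difference of cytarabine effects between MUT and EV (0 called), leaving out 1 library gave 0 to 1; between MUT and WT (0 called), DESeq2 gave 1 and leaving out 1 library 0 to 1.

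Some log2 values changed sign, and none of them had been called. Not all were near 0 in the main fit, where the difference of effects between MUT and EV was -0.17 for TK1 and 0.18 for DUT. The RRM1 difference of effects between MUT and EV was -0.0275 with relative log expression scaling, -0.0222 with upper-quartile scaling, -0.00180 with the factors of the authors, -0.0308 for genes with a mean of at least 50 counts, -0.00541 with only the groups compared and -0.0245 with DESeq2. The same difference for TYMS was -0.0112 (relative log expression), -0.00780 (upper quartile), -0.0155 (at least 50 counts) and -0.00923 (DESeq2). The DUT difference of effects between MUT and WT was -0.0469 (relative log expression), -8.66e-04 (upper quartile), -0.0270 (factors of the authors), -0.0137 (no filter), -0.0140 (at least 50 counts) and -0.0479 (DESeq2). RRM1 in treated WT against EV was -0.0105 (upper quartile) and -0.00912 (at least 50 counts), and DGUOK in treated MUT against WT was -0.00442 (no filter). TYMS in untreated MUT against WT was -0.00150 with only the groups compared. Without replicates 2 and 3 of untreated MUT it was -0.00897, RRM1 in untreated MUT against EV was -0.0465, the TK1 difference of effects between MUT and EV was 0.0169 and that of RRM2 between MUT and WT 0.00950.

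Leaving out 1 library at a time, TK2 in untreated WT against EV ranged from -0.0513 to 0.0209, TYMS in untreated MUT against WT from -0.116 to 0.170, RRM1 in treated WT against EV from -0.0248 to 0.0636, RRM2B there from -0.0965 to 0.00298 and DGUOK in treated MUT against WT from -0.0393 to 0.0466. The difference of effects between MUT and EV ranged from -0.0492 to 0.0644 for RRM1, from -0.00431 to 0.106 for RRM2, from -0.137 to 0.149 for TYMS and from -0.00158 to 0.362 for DUT, and the difference between MUT and WT for DUT from -0.178 to 0.184.

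Replicate numbers did not pair the libraries across all groups: over 45 same-numbered pairs, the correlation of deviations ran from -0.176 to 0.352, with 7 over 0.1, and 6 of 18 libraries correlated best with their own number. Those 7 pairs were all among EV and MUT libraries. For replicate 3, treated EV gave 0.352 with untreated MUT and 0.305 with treated MUT, and treated MUT gave 0.326 with untreated MUT. Replicate 3 of untreated WT gave -0.176 with replicate 3 of untreated MUT. With the replicate number as a block, 8 members were called under cytarabine in EV (7 without the block) and 6 in WT (7 without), where the rise of TK2 (edgeR adjusted p = 0.0507) was lost; the fall of DGUOK in EV passed (0.0381), and the RRM2B difference between treated MUT and WT was lost (0.0576). Depth was 15.4 to 21.9 M counts per library, and TK2, the member with the fewest counts, stood at 18.1 CPM in its lowest library.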
